A study of Mus musculus with 12 samples.

Results

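The 10 genes described here, Gfap, Aqp4, Aldh1l1, S100b, Fgfr3, Slc1a2, Slc1a3, Gja1, Gjb6 and Aldoc, are widely used as markers of astrocytes, and their RNA was followed in hippocampus and prefrontal cortex from mice of 2 genotypes. A probe set, the group of short probes that gives 1 signal on an Affymetrix array, was taken when the platform annotation gave 1 of these symbols as its only gene. All 10 genes were found, with 32 of the 45037 probe sets tested, and 18193 genes were represented by such probe sets in all. Gfap and Aqp4 had 3 probe sets each, Aldh1l1, S100b, Fgfr3 and Aldoc 2 each, Slc1a2 5, Slc1a3 and Gja1 6 each, and Gjb6 1. The probe sets of a gene are numbered here in order of their identifier. One further probe set named Slc1a2 beside another gene and was left out.

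The mice were females of C57BL/6 background after 6 backcross generations and were 38 to 40 weeks old. APLP2-KO mice (APLP2-/-) lack APLP2, which belongs to the same family as the amyloid precursor protein (APP), and keep their normal App. APPsα-DM mice (APPα/αAPLP2-/-) lack APLP2 as well, and both of their App alleles are edited so that, as the allele is generally described, only the secreted ectodomain APPsα is made. All 12 arrays thus came from animals without APLP2, and no wild-type sample was used here. Each of the 4 groups, APLP2-KO cortex, APPsα-DM cortex, APLP2-KO hippocampus and APPsα-DM hippocampus, held 3 arrays, and each genotype was represented by 3 mice, per the series design. If 3 mice gave the 3 cortex and 3 hippocampus arrays of a genotype, arrays of the 2 tissues share mice. The labels do not say which cortex and hippocampus come from 1 mouse, and the main tissue tests did not pair them. The alleles are present in every cell of the animal, so that the mice are no model of a change made in astrocytes alone.

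Astrocytes are the glial cells that take up transmitter and potassium from around synapses, pass metabolites to neurons and cover blood vessels with their endfeet. The 10 genes cover these tasks: Gfap encodes the cytoskeletal filament protein by which astrocytes are usually stained, Aqp4 the water channel of the endfeet, and Gja1 and Gjb6 the connexins that couple astrocytes into networks. Slc1a2 and Slc1a3 encode the glutamate transporters GLT-1 and GLAST, Aldh1l1 a folate enzyme, S100b a calcium-binding protein, Fgfr3 a growth factor receptor and Aldoc the brain form of the glycolytic enzyme aldolase. Astrocytes differ between brain regions, and the filament protein in particular is known to be richer in hippocampal astrocytes than in those of the cortical grey matter.

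The values are log2 signals, on which a difference of 1 is a doubling. Arrays were compared with limma, a linear model with a moderated variance, and a difference is called higher or lower when its p, adjusted over all 45037 probe sets, was below 0.05. A level belongs to its own probe set, and levels of different probe sets were not compared except as differences within an array. Tissue markers fitted the labels: Prox1 and Dsp of the dentate gyrus and Spink8 of field CA1 were higher on every hippocampal than on every cortical array, and Rorb and Cux2 of the cortical layers were higher on every cortical array. Fezf2 of the deep layers did not separate the tissues in this way (8.46 to 8.97 in cortex, 8.91 to 9.32 in hippocampus). The brightest App probe set lay at 13.38 to 13.50 in APLP2-KO and at 11.46 to 11.83 in APPsα-DM. Choroid plexus RNA varied between arrays: its transcript Ttr ranged from 8.20 to 14.36, and among cortical arrays APLP2-KO replicate 3 (14.03) and APPsα-DM replicate 2 (14.18) stood apart from the other 4 (8.20 to 9.42). Some counts below are also given without those 2 arrays, and counts given only once can differ without them. In bulk tissue, fewer cells of a type and less RNA per cell cannot be told apart, and the p-values measure the spread between these samples.

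The stretches just upstream of the genes that differed between the tissues are shown first, because these genes did not all move in 1 direction and a reader may want their start regions side by side. Each line gives the 250 bases before the RefSeq gene start on GRCm38.p6, written along the gene. Windows were at hand for 9 of the 10 genes. Capitals mark matches to any of 5 motifs searched on both strands: the TATA box (TATAAA), the CCAAT box (CCAAT), a STAT site (TTCNNNGAA), a SOX core (AACAAT) and an NFI site (TTGGC and GCCAA with any 5 bases between them). The NFI site ends in letters that the CCAAT box shares.
Gfap, chr11:102897201-102897450, minus strand: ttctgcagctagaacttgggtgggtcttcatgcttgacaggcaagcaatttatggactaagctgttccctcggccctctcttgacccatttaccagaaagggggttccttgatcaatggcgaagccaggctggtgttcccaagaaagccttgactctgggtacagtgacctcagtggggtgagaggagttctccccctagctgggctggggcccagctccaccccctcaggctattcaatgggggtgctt
Gja1, chr10:56377050-56377299, plus strand: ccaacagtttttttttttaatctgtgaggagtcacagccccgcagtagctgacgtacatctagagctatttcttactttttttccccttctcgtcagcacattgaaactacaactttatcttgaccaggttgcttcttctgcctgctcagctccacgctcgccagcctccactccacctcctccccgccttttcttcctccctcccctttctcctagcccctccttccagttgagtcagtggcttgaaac
Slc1a3, chr15:8710808-8711057, minus strand: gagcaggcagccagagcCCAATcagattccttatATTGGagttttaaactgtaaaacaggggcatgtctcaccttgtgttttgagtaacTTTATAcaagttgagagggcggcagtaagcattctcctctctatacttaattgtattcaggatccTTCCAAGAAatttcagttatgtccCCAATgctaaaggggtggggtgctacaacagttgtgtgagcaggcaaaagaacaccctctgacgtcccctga
Aldh1l1, chr6:90550543-90550792, plus strand: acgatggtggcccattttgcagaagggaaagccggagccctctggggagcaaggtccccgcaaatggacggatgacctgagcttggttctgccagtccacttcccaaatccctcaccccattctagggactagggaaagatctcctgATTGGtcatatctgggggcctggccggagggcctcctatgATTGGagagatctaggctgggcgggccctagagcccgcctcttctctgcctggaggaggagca
S100b, chr10:76253586-76253835, plus strand: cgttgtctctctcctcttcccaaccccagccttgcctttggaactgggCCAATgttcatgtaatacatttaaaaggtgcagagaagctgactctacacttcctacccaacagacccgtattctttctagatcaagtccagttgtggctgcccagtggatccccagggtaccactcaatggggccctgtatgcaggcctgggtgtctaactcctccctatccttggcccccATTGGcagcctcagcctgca
The Gfap and Gja1 windows held none of the 5 motifs. The Aldh1l1 window held CCAAT boxes, both on the opposite strand, at positions -103 and -63 from the start. The S100b window held them at -202 and, on the opposite strand, at -20. The Slc1a3 window held CCAAT boxes at -233 and -72 and, on the opposite strand, at -216. It also held a TATA box on the opposite strand at -161 and a STAT site at -96. Of all 32851 windows of this length, 33.8% held a CCAAT box, 12.4% a TATA box, 7.02% a STAT site, 9.42% a SOX core and 0.0365% an NFI site. A match is a run of letters and no shown binding site.

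The astrocyte markers did not shift together between the tissues. Averaged over the genotypes, Gfap, Aqp4, Gja1 and Slc1a3 were higher in hippocampus, Aldh1l1 and S100b were lower, and Fgfr3, Gjb6 and Aldoc did not pass the threshold. Slc1a2 gave different answers by probe set. Of the 32 probe sets, 16 were called higher and 4 lower, 20 in all, where 21.0% of all probe sets were called (10.3% higher, 10.7% lower). The differences ran from -0.49 to 1.71, with 25 above 0 and 7 below 0 and a median of 0.213, against -0.006 over all probe sets. In 10 probe sets every hippocampal array lay above every cortical array, and in 3 every one lay below, against 6.57% and 7.08% of all probe sets. By the brightest probe set of each gene, 4 of the 10 genes were higher and 2 lower, where 11.75% and 14.24% of all genes were. Without the 2 cortical arrays rich in Ttr, 17 probe sets were called (13 higher, 4 lower), and with the choroid plexus signal as a covariate 18 (15 higher, 3 lower). The shares of all probe sets called under these alternatives were not counted.

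**Figure D1:**
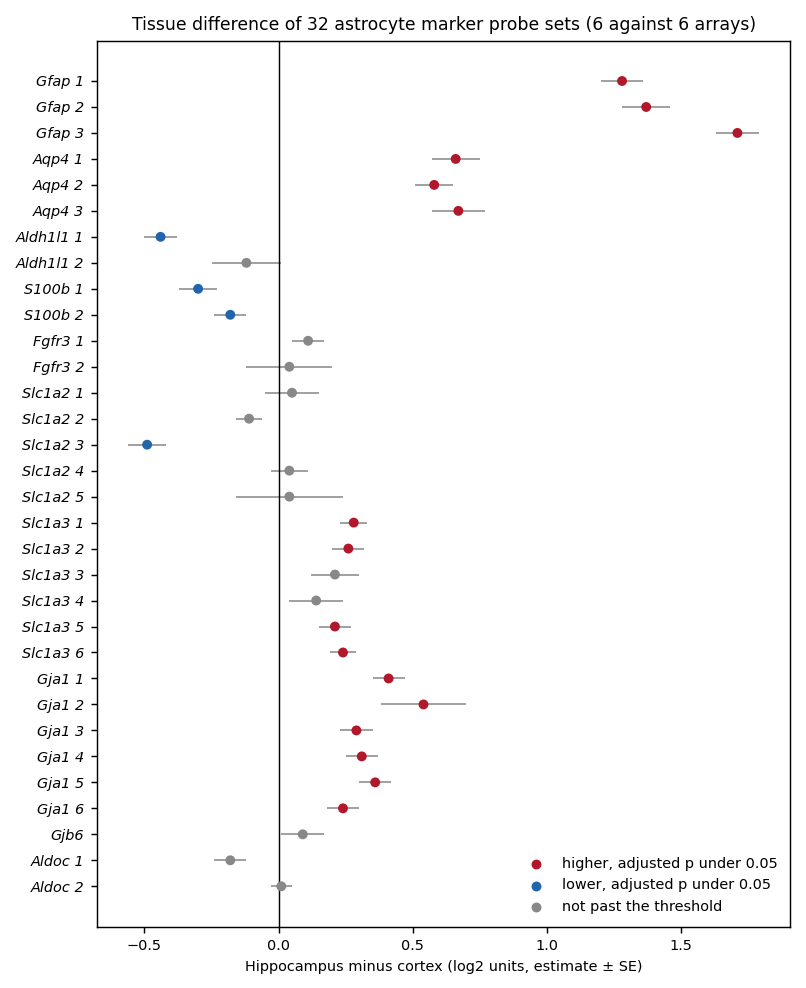
Hippocampus minus cortex for the 32 probe sets of the 10 astrocyte markers, averaged over both genotypes (x axis, log2 units). Bars show the estimate ± SE, and colours show calls at an adjusted p under 0.05. The 3 Gfap probe sets lie farthest to the right, at 1.28 to 1.71, and Slc1a2 3 and Aldh1l1 1 farthest to the left, at -0.49 and -0.44.

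Gfap showed the largest difference of the 10 genes. Probe set Gfap 1 (the gene is on chromosome 11) read 8.90, 8.75 and 8.63 in the cortex of APLP2-KO mice and 8.43, 8.88 and 8.77 in that of APPsα-DM mice. In hippocampus it read 10.02, 9.95 and 9.86 in APLP2-KO and 10.01, 10.21 and 10.02 in APPsα-DM. Every hippocampal array thus lay about a log2 unit or more above every cortical one, with no overlap. The difference was 1.28 ± 0.08 (SE), a 2.43-fold higher signal (adjusted p = 2.02e-07). Gfap 2 gave 1.37 ± 0.09 (adjusted p = 3.14e-07) and Gfap 3 gave 1.71 ± 0.08, or 3.28-fold (adjusted p = 2.85e-08), so the probe sets shared the direction but not the size. The group means of Gfap 1 fell in the order APPsα-DM hippocampus (10.08 ± 0.11, mean ± SD, n = 3), APLP2-KO hippocampus (9.95 ± 0.08), APLP2-KO cortex (8.76 ± 0.14) and APPsα-DM cortex (8.70 ± 0.23). Neighbours within a tissue overlapped in their arrays. All 3 calls held with each array left out (1.22 to 1.33 for Gfap 1), without the arrays rich in Ttr (1.30) and with the choroid covariate (1.31).

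Aqp4 was higher in hippocampus by all 3 of its probe sets. The protein sits in the endfoot membrane, anchored there by the dystrophin complex. Aqp4 2 read 10.21, 10.10 and 10.03 in the cortex of APLP2-KO mice, 9.90, 10.02 and 10.23 in that of APPsα-DM mice, 10.84, 10.75 and 10.59 in APLP2-KO hippocampus, and 10.49, 10.54 and 10.74 in APPsα-DM hippocampus. The lowest hippocampal array (10.49) lay above the highest cortical one (10.23). The difference was 0.58 ± 0.07, a 1.49-fold higher signal (adjusted p = 7.85e-05). Aqp4 1 gave 0.66 ± 0.09 and Aqp4 3 gave 0.67 ± 0.10, also without overlap of the tissues. The endfoot list, 11 measured genes with Aqp4 among them, was mixed: 3 were called higher and 2 lower, with a median of 0.08, where 11.75% of all genes were called higher and 14.24% lower by their brightest probe set. The dystrophin-bound syntrophin gene Sntb1 was higher (0.88 ± 0.09, adjusted p = 1.73e-05) and the dystrobrevin gene Dtna lower (-0.36 ± 0.06, adjusted p = 0.000611). Mlc1, whose membrane protein lines the endfeet, was higher by 0.15 ± 0.05 (adjusted p = 0.0369). The Mlc1 call was kept in 4 of 12 fits that left out 1 array and was lost without the arrays rich in Ttr (adjusted p = 0.0971). The other gene called lower, Kcnj10, which encodes a potassium channel and was named after its values were seen, gave -0.22 ± 0.07 (adjusted p = 0.0408). Its call was kept in 3 of 12 such fits and lost with the choroid covariate (adjusted p = 0.235).

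Gja1, which encodes the main connexin of astrocytes, was higher in hippocampus by all 6 of its probe sets, with differences from 0.24 to 0.54. Its brightest, Gja1 3, read 12.01, 11.82 and 11.69 in the cortex of APLP2-KO mice and 11.89, 11.88 and 11.83 in that of APPsα-DM mice. In hippocampus it read 12.26, 12.23 and 12.16 in APLP2-KO and 12.15, 11.94 and 12.12 in APPsα-DM. The tissues overlapped slightly, since APLP2-KO cortex replicate 1 (12.01) exceeded APPsα-DM hippocampus replicate 2 (11.94). The difference was 0.29 ± 0.06, a 1.22-fold higher signal (adjusted p = 0.00407). Gja1 1 (0.41 ± 0.06, adjusted p = 0.000272) and Gja1 5 (0.36 ± 0.06, adjusted p = 0.000897) separated the tissues on every array, and the other probe sets did not. Gja1 2 gave the largest value, 0.54 ± 0.16, with an adjusted p of 0.0344, and was the least even: APPsα-DM replicate 2 was low in both tissues, at 6.45 in cortex and 6.86 in hippocampus, against 6.95 to 7.82 on all other arrays. Its call was kept in 5 of the 12 fits that left out 1 array. Without the arrays rich in Ttr, Gja1 2 and Gja1 6 (adjusted p = 0.0534) were no longer called.

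Gjb6, the other connexin of astrocytes, did not pass. Its single probe set read 9.87, 9.71 and 9.57 in the cortex of APLP2-KO mice, 9.72, 9.74 and 9.59 in that of APPsα-DM mice, 9.90, 9.76 and 9.73 in APLP2-KO hippocampus, and 10.08, 9.63 and 9.66 in APPsα-DM hippocampus. The tissues overlapped widely. The difference was 0.09 ± 0.08 (95% interval -0.09 to 0.27, adjusted p = 0.504). Over all genes, 11.75% were called higher and 14.24% lower. Among 11 measured connexins and pannexins, Gja1 was the only one called higher, and 2 were called lower. Those were Gjb1, a connexin of oligodendrocytes (-0.42 ± 0.11, adjusted p = 0.0151), and Gja4, a connexin of blood vessels (-0.16 ± 0.05, adjusted p = 0.0342). Neither was called without the arrays rich in Ttr (adjusted p = 0.0624 for Gjb1 and 0.0522 for Gja4). The Gja4 call was kept in 3 of 12 fits that left out 1 array.

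Slc1a3, the gene of the glutamate transporter GLAST, was higher in hippocampus by 4 of its 6 probe sets. The brightest, Slc1a3 6 (the gene is on chromosome 15), read 10.86, 10.79 and 10.74 in the cortex of APLP2-KO mice, 10.75, 10.59 and 10.79 in that of APPsα-DM mice, 11.01 ± 0.01 in APLP2-KO hippocampus (mean ± SD, n = 3, highest 11.02), and 10.91, 11.03 and 10.98 in APPsα-DM hippocampus. Every hippocampal array lay above every cortical one, by a narrow margin. The difference was 0.24 ± 0.05, a 1.18-fold higher signal (adjusted p = 0.00342). Slc1a3 1, 2 and 5 gave 0.28, 0.26 and 0.21 and were called, although the call of Slc1a3 2 was lost without the arrays rich in Ttr (adjusted p = 0.0578). The other 2 probe sets, Slc1a3 3 and 4, had the dimmest means, 4.74 and 3.23, against a median of 5.89 over all probe sets. They gave 0.21 ± 0.09 and 0.14 ± 0.10 and did not pass. Slc1a3 3 passed without APLP2-KO hippocampus replicate 1 or without APPsα-DM cortex replicate 3.

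Slc1a2, the gene of the transporter GLT-1 that carries out most glutamate uptake in the forebrain, was not uniform across its 5 probe sets. Slc1a2 3 read 9.16, 9.17 and 8.83 in the cortex of APLP2-KO mice, 9.04, 8.97 and 9.06 in that of APPsα-DM mice, 8.60, 8.49 and 8.27 in APLP2-KO hippocampus, and 8.71, 8.58 and 8.66 in APPsα-DM hippocampus. All hippocampal arrays lay below all cortical ones, and the difference was -0.49 ± 0.07, a 1.40-fold lower signal (adjusted p = 0.000354). The brightest, Slc1a2 2, had a mean of 13.05 and read 13.05 to 13.19 in cortex and 12.93 to 13.10 in hippocampus. Its difference was -0.11 ± 0.05 (95% interval -0.21 to -0.01, adjusted p = 0.112), so its interval does not reach the value of Slc1a2 3. It passed with a mean-variance trend or over probe sets of a mean of at least 6. Slc1a2 4 gave 0.04 ± 0.07, and the dimmer Slc1a2 1 and 5 gave 0.05 ± 0.10 and 0.04 ± 0.20. Slc1a2 5 was uneven: APPsα-DM hippocampus replicate 2 read 5.15 against 6.67 in replicate 1, and the probe set was called without that array. Which part of the transcript each probe set covers was not analysed here.

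The list of glutamate and GABA uptake and the glutamine cycle, which holds both transporters, was split: of 11 measured genes, 3 were called higher and 3 lower (median -0.06). Over all genes, 11.75% were called higher and 14.24% lower. Slc1a1, a glutamate transporter mainly of neurons, was higher (0.49 ± 0.05, adjusted p = 1.14e-05). Slc6a11, an astrocytic GABA transporter, was lower (-0.38 ± 0.08, adjusted p = 0.00406), as was Pcx, the carboxylase that refills the astrocytic citric acid cycle (-0.25 ± 0.05, adjusted p = 0.00421). Glul, the glutamine synthetase of astrocytes, gave -0.05 ± 0.04 and was not called. Glul is named here for its role and falls outside the rule for named genes.

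Aldh1l1, often taken as a marker of all astrocytes, was lower in hippocampus by the probe set that was well above the dim range. Aldh1l1 1 (the gene is on chromosome 6) read 9.30, 9.31 and 9.09 in the cortex of APLP2-KO mice, 9.11, 9.29 and 9.09 in that of APPsα-DM mice, 8.69, 8.86 and 8.80 in APLP2-KO hippocampus, and 8.65, 8.81 and 8.77 in APPsα-DM hippocampus. The highest hippocampal array (8.86) lay below the lowest cortical one (9.09). The difference was -0.44 ± 0.06, a 1.35-fold lower signal (adjusted p = 0.000185). It stayed between -0.47 and -0.40 with each array left out. Aldh1l1 2 had a mean of only 4.79 and gave -0.12 ± 0.13 (95% interval -0.40 to 0.16). Of 9 measured enzymes of folate metabolism, Aldh1l1 was the only one called lower, and Shmt1, a serine hydroxymethyltransferase, was called higher (0.19 ± 0.06, adjusted p = 0.0412). Over all genes, 11.75% were called higher and 14.24% lower. The Shmt1 call was kept in 3 of 12 fits that left out 1 array and was lost without the arrays rich in Ttr (adjusted p = 0.137).

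S100b was lower in hippocampus by both probe sets, by small amounts. S100b 1 read 10.15, 9.94 and 9.89 in the cortex of APLP2-KO mice, 9.82, 10.12 and 9.91 in that of APPsα-DM mice, 9.75, 9.65 and 9.58 in APLP2-KO hippocampus, and 9.65, 9.72 and 9.67 in APPsα-DM hippocampus. The tissues did not overlap. The difference was -0.30 ± 0.07, a 1.23-fold lower signal (adjusted p = 0.0049). The brighter S100b 2 gave -0.18 ± 0.06 with an adjusted p of 0.0488 and with overlapping tissues, and it was called in only 2 of the 12 fits that left out 1 array. With the choroid covariate its adjusted p was 0.177. S100b is also made by oligodendrocytes. All 11 measured oligodendrocyte genes had differences below 0 (median -0.14). Where 14.24% of all genes were called lower, 2 of these 11 were. Those were Mag (-0.29 ± 0.08, adjusted p = 0.0271) and Mog (-0.37 ± 0.12, adjusted p = 0.0365), and neither was called without the arrays rich in Ttr (adjusted p = 0.0997 for Mag and 0.143 for Mog). The part of these cells in the S100b difference was not tested.

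Fgfr3 and Aldoc did not pass between the tissues. Fgfr3 1 read 10.03 to 10.24 in APLP2-KO cortex, 9.92 to 10.06 in APPsα-DM cortex, 10.20 to 10.25 in APLP2-KO hippocampus and 10.01 to 10.24 in APPsα-DM hippocampus, and its difference was 0.11 ± 0.06 (95% interval -0.01 to 0.23, adjusted p = 0.198). Fgfr3 2 gave 0.04 ± 0.16, with 1 low array, APPsα-DM hippocampus replicate 2, at 6.40 against 7.35 and 7.55 in the other arrays of that group. The list of FGF receptors and ligands (12 measured) held 2 genes called higher, the receptor Fgfr1 (0.93 ± 0.10, adjusted p = 1.6e-05) and Fgf13 (0.57 ± 0.05, adjusted p = 2.98e-06), and 2 called lower, Fgf14 (-0.69 ± 0.07, adjusted p = 1.53e-05) and Fgf9 (-0.29 ± 0.07, adjusted p = 0.00713). Over all genes, 11.75% were called higher and 14.24% lower. Fgf13 and Fgf14 belong to the intracellular members of the family, which bind sodium channels and no FGF receptor.

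Aldoc 2 was the most even of the 32 probe sets between the tissues: it read 13.27 to 13.34 in cortex and 13.28 to 13.34 in hippocampus, a difference of 0.01 ± 0.04 (95% interval -0.07 to 0.10). Its mean of 13.31 lay near the top of the scale, which ended at 14.36 on these arrays. Aldoc 1, with a mean of 9.01, gave -0.18 ± 0.06 (adjusted p = 0.0554). It was called lower without APPsα-DM hippocampus replicate 2, without APPsα-DM cortex replicate 3, with a mean-variance trend, over probe sets of a mean of at least 6, and with each array centred on its median. Among 22 measured genes of glycolysis and lactate transport, 3 were called higher and 4 lower (median -0.05), and 3 and 2 with the choroid covariate. Without the covariate, 11.75% of all genes were called higher and 14.24% lower, and the list lay near these shares. Ldhb, a lactate dehydrogenase subunit, was lower (-0.48 ± 0.04, adjusted p = 2.47e-06), as was the phosphofructokinase Pfkp (-0.31 ± 0.05, adjusted p = 0.000272). Pygb, the brain glycogen phosphorylase (0.45 ± 0.05, adjusted p = 1.42e-05), and the hexokinase Hk2 (0.61 ± 0.10, adjusted p = 0.000484) were higher.

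**Figure D2:**
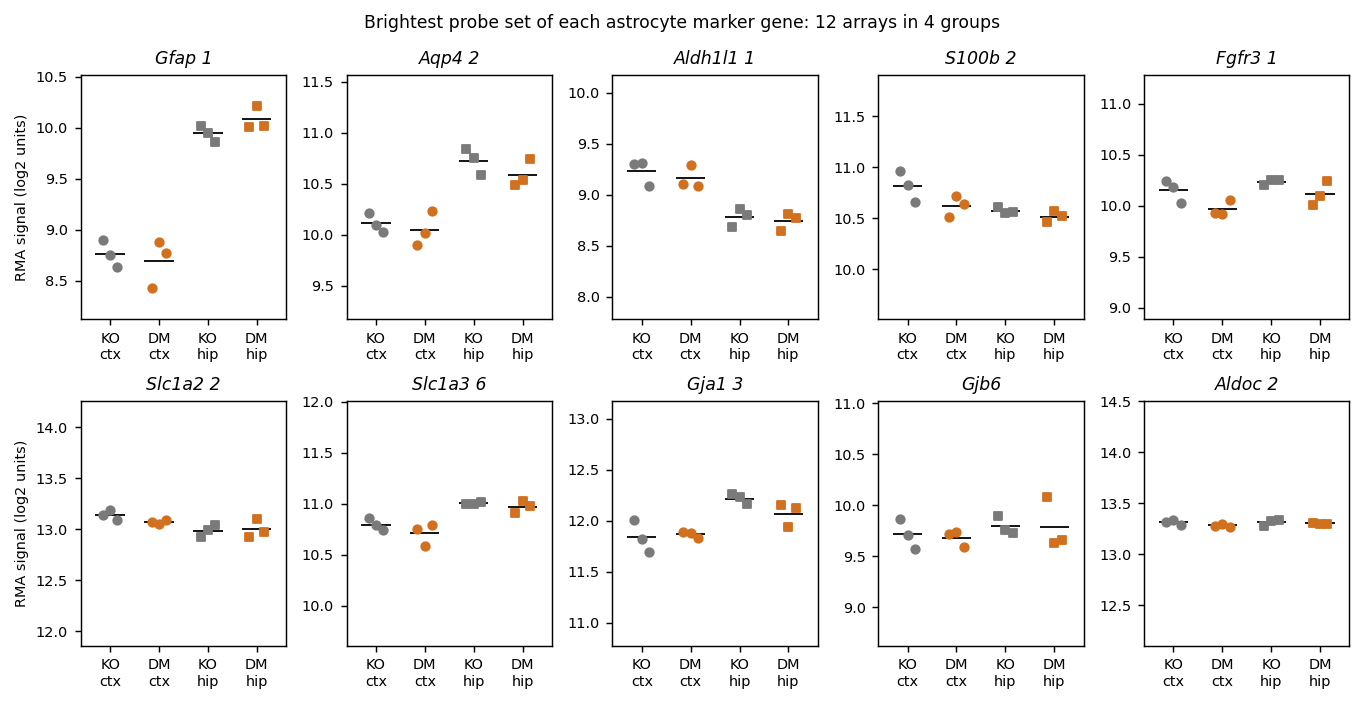
Log2 signal of the brightest probe set of each of the 10 astrocyte markers on every array (y axis; each panel spans the same number of log2 units; points, arrays; short lines, group means of 3 arrays; KO, APLP2-KO; DM, APPsα-DM; ctx, cortex; hip, hippocampus). The Gfap panel shows the tissues apart, at 8.43 to 8.90 and 9.86 to 10.21, while the Aldoc points form an almost flat line between 13.27 and 13.34.

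The opposite directions can also be shown on single arrays. The signal of Gfap 1 minus that of Aldh1l1 1 lay between -0.68 and -0.32 on the 6 cortical arrays and between 1.07 and 1.40 on the 6 hippocampal arrays. For Aqp4 2 minus S100b 1 the ranges were -0.10 to 0.32 and 0.82 to 1.10. For Slc1a3 6 minus Slc1a2 3 they were 1.62 to 1.92 and 2.20 to 2.74. These 3 pairs were chosen because their probe sets had been called in opposite directions, so the ranges restate those calls array by array and are no further support.

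The tissue differences were also tested in each genotype alone. In APLP2-KO, 15 of 32 probe sets were called (12 higher, 3 lower), where 12.6% of all probe sets were (5.62% higher, 6.98% lower). In APPsα-DM, 11 of 32 were called (9 higher, 2 lower), where 10.6% of all were (5.21% higher, 5.42% lower). Called in both, in 1 direction, were 9 probe sets: the 3 of Gfap, the 3 of Aqp4, Aldh1l1 1, Slc1a2 3 and Gja1 1. The share of all probe sets called in both was not counted. Some of these calls were fragile in APPsα-DM. There, Slc1a2 3 was called in 5 of 12 fits that left out 1 array, and Aqp4 3 and Gja1 1 in 7 of 12. Slc1a2 3 was also not called in APPsα-DM with the choroid covariate. Gfap 1 was higher by 1.18 ± 0.11 in APLP2-KO and by 1.38 ± 0.11 in APPsα-DM, Aqp4 2 by 0.61 ± 0.10 and 0.54 ± 0.10, and Aldh1l1 1 was lower in both, at -0.45 ± 0.09 and -0.42 ± 0.09. Slc1a2 3 gave -0.60 ± 0.10 and -0.37 ± 0.10, and Gja1 1 gave 0.49 ± 0.08 and 0.34 ± 0.08. The number called in APPsα-DM rested on single arrays: it was 7 without cortex replicate 1, 6 without cortex replicate 2, 7 without hippocampus replicate 3 and 7 without both arrays rich in Ttr. In APLP2-KO the tissues did not overlap in 16 probe sets with hippocampus higher and 6 with it lower (14.8% and 15.5% of all), and in APPsα-DM in 13 and 3 (13.2% and 14.2% of all).

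No probe set of the 10 genes passed the test of the difference between the genotypes' tissue effects, and none of all 45037 did. The values ran from -0.30 to 0.27, with 18 above 0 and 14 below 0. For Gfap 1 the difference was 0.20 ± 0.16 (95% interval -0.15 to 0.55), for Aqp4 2 -0.07 ± 0.14 (-0.39 to 0.24), for Gja1 3 -0.17 ± 0.12 (-0.44 to 0.09) and for Aldh1l1 1 0.03 ± 0.12 (-0.23 to 0.29). These intervals bound what 3 arrays per group can show and do not establish equal effects. At an unadjusted p under 0.05, limma found 0 of the 32 probe sets and 3.79% of all probe sets.

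**Figure D3:**
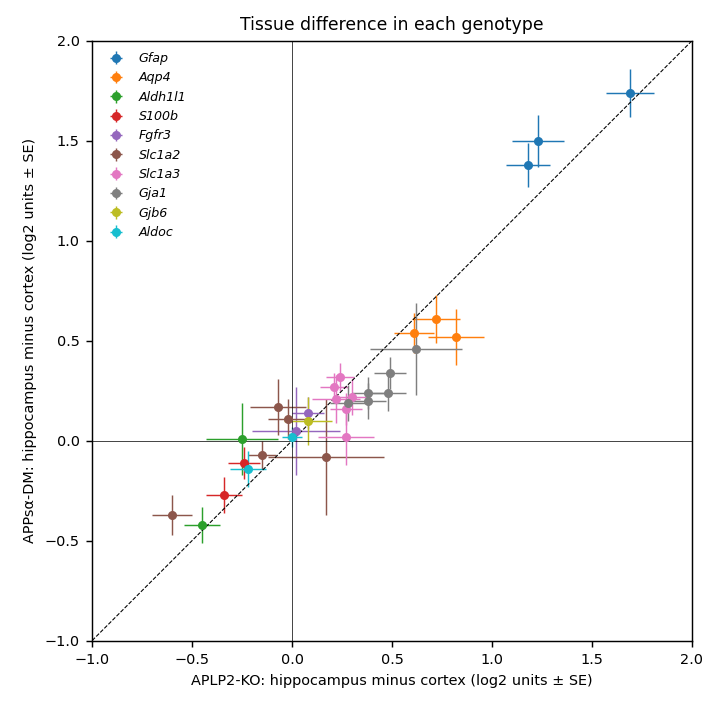
Hippocampus minus cortex in APPsα-DM (y axis) against the same difference in APLP2-KO (x axis), both in log2 units, for the 32 probe sets of the astrocyte markers. The Gfap probe sets stand at the upper right, between 1.18 and 1.74 on both axes, and Aldh1l1 1, S100b 1 and Slc1a2 3 lie below 0 on both.

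Between the genotypes no astrocyte marker showed a called difference. In cortex, in hippocampus and in the mean of both tissues, 0 of the 32 probe sets passed (smallest adjusted p = 1 each time), where 0.00888% of all probe sets passed in each comparison (0.00222% higher and 0.00666% lower in APPsα-DM). The differences, APPsα-DM minus APLP2-KO, ran from -0.28 to 0.07 in cortex and from -0.40 to 0.20 in hippocampus. The low end in hippocampus, Slc1a2 5, rested on APPsα-DM replicate 2 and was 0.06 without it, and Gja1 2 and Fgfr3 2 also changed sign without that array (from -0.26 to 0.01 and from -0.25 to 0.10). Below 0 lay 25 of 32 in cortex (median -0.065, against 0.004 over all probe sets) and 23 of 32 in hippocampus (median -0.090, against -0.003). Probe sets of 1 gene read the same RNA, so these counts hold fewer independent values than 32. At an unadjusted p under 0.05, limma found 3 of 32 probe sets in cortex (9.38%, against 4.50% of all), 0 in hippocampus (against 4.11%) and 1 in the mean of the tissues (3.12%, against 4.03%).

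The 3 in cortex were Fgfr3 1, S100b 2 and Slc1a3 1. Fgfr3 1 read 10.24, 10.18 and 10.03 in APLP2-KO and 9.93, 9.92 and 10.06 in APPsα-DM, with 1 array of each group overlapping. The difference was -0.18 ± 0.08 (95% interval -0.35 to -0.01). S100b 2 read 10.96, 10.83 and 10.66 against 10.51, 10.72 and 10.64, again with overlap, a difference of -0.19 ± 0.08 (95% interval -0.37 to -0.01). Slc1a3 1 read 10.33, 10.29 and 10.28 against 10.09, 10.02 and 10.30, where APPsα-DM replicate 3 lay among the APLP2-KO arrays, a difference of -0.16 ± 0.07. None of these passed after adjustment over all probe sets. In hippocampus the same probe sets gave -0.12 ± 0.08, -0.06 ± 0.08 and -0.09 ± 0.07.

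Gfap, the usual sign of reactive astrocytes, did not show a called difference between the genotypes. Gfap 1 gave -0.07 in cortex (95% interval -0.31 to 0.18) and 0.13 in hippocampus (-0.11 to 0.38). For this probe set a rise of more than 0.38 log2 units thus lay outside both intervals. The interval of Gfap 2 in hippocampus reached higher, from -0.14 to 0.41. Gfap 2 in hippocampus was the only probe set of the 10 genes whose 3 APPsα-DM arrays (9.31, 9.55 and 9.30) all lay above the 3 APLP2-KO arrays (9.24, 9.29 and 9.22), where 4.10% of all probe sets did so. Its difference was 0.14 ± 0.13 and was not called. In the other direction, 5 probe sets did not overlap in hippocampus, where 5.78% of all did so: Slc1a3 1 and Gja1 1, 3, 5 and 6. Gja1 1 read 12.02, 11.88 and 11.80 in APLP2-KO hippocampus and 11.78, 11.68 and 11.78 in APPsα-DM hippocampus, a difference of -0.15 ± 0.08 (95% interval -0.34 to 0.03). With all arrays, the 6 Gja1 probe sets gave -0.26 to -0.13 in hippocampus, and -0.10 to 0.07 in cortex. In cortex, 3 probe sets were lower without overlap (4.66% of all), Fgfr3 2, Slc1a2 2 and Aldoc 1, and 0 were higher (4.07% of all). In the mean of both tissues, 1 was lower, Slc1a3 1 (-0.12 ± 0.05, where 4.72% of all were lower without overlap), and 0 were higher (4.42% of all).

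**Figure D4:**
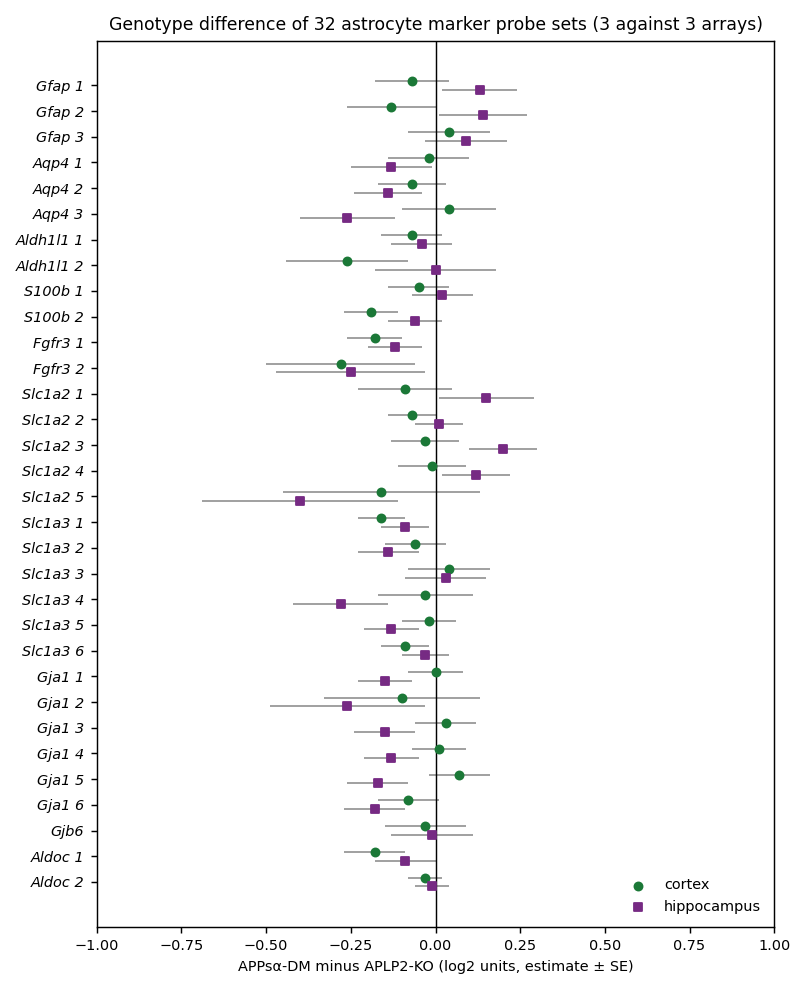
APPsα-DM minus APLP2-KO in cortex and in hippocampus for the 32 probe sets of the astrocyte markers (x axis, log2 units). Bars show the estimate ± SE and are narrower than 95% intervals. Every value is within 0.40 of 0, the farthest (Slc1a2 5 in hippocampus) rests on 1 array, and no probe set passed the adjusted threshold.

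Genes whose profiles over the 12 arrays were most like those of the markers were ranked by the root mean square distance between centred log2 profiles. Closest to Gfap 1 were the guidance receptor gene Nrp2 (distance 0.148), the non-coding Prox1os (0.150) and the growth factor gene Tgfb2 (0.157), against a spread of 0.655 (SD) of Gfap 1 itself. Closest to Aqp4 2 were Hs3st4 (0.090), 2900052N01Rik (0.092) and Rcbtb2 (0.092), with a spread of 0.312. Closest to Aldh1l1 1 were Clstn3 (0.063), Fbxw7 (0.063) and Fscn1 (0.065), with a spread of 0.235. Closest to Gja1 3 was Mcur1 (0.051, spread 0.176), to Slc1a3 6 Fam155a (0.040, spread 0.136) and to S100b 2 Slc35a4 (0.043, spread 0.138). The remaining profiles had neighbours at distances nearer to their own spread: Nisch for Fgfr3 1 (0.056, spread 0.119), Fbxl17 for Slc1a2 2 (0.030, spread 0.079), Alox5ap for Gjb6 (0.062, spread 0.138) and Scg3 for Aldoc 2 (0.017, spread 0.023). Of the genes named here, none is another of the 10 markers. A small distance between flat profiles shows little likeness.

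Other genes rich in astrocytes also went in both directions. Of 31 measured genes, 7 were called higher and 3 lower in hippocampus, where 11.75% and 14.24% of all genes were, with a median of 0.10 against -0.015 over all genes. Chrdl1, a secreted antagonist of bone morphogenetic proteins made by astrocytes, was lower by the largest amount (-1.71 ± 0.10, adjusted p = 7.75e-08), followed by Dio2, the thyroid hormone activating deiodinase (-0.74 ± 0.08, adjusted p = 1.42e-05). Pla2g7, a secreted phospholipase (0.40 ± 0.05, adjusted p = 3.57e-05), and Plpp3, a lipid phosphatase (0.26 ± 0.04, adjusted p = 0.00077), were higher. Of 13 genes listed as rising in reactive astrocytes of any kind, 5 were called higher and 0 lower in hippocampus, where 11.75% and 14.24% of all genes were. Beside Gfap they included the protease inhibitor Serpina3n (1.72 ± 0.11, adjusted p = 2.78e-07), the hyaluronan receptor Cd44 (1.26 ± 0.15, adjusted p = 6.43e-05) and the oncostatin receptor Osmr (0.48 ± 0.06, adjusted p = 4e-05), while 8 of the 13 were not called. At an unadjusted p under 0.05 limma found 6 of the 13, where it found 32.12% of all probe sets.

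The remaining reactive genes, 23 measured, held 3 called higher and 1 lower. For both lists of this paragraph, the shares of all genes were 11.75% called higher and 14.24% lower. Ptgs2, a prostaglandin synthase also made by neurons (1.31 ± 0.12, adjusted p = 4.49e-06), Fkbp5 (0.92 ± 0.11, adjusted p = 3.97e-05) and Cd109 (0.87 ± 0.07, adjusted p = 3.03e-06) were higher, and S100a10 was lower (-0.55 ± 0.08, adjusted p = 0.00019). Radial glia-like cells of the dentate gyrus, the stem cells of adult neurogenesis, also express Gfap and Slc1a3. Of 11 measured genes of these cells, 3 were called higher, Hopx (0.94 ± 0.05, adjusted p = 7.3e-08), Fabp7 (0.62 ± 0.13, adjusted p = 0.00435) and the filament gene Vim (0.46 ± 0.10, adjusted p = 0.00696). Prom1 was called lower (-0.22 ± 0.07, adjusted p = 0.0405), in 4 of 12 fits that left out 1 array and not without the arrays rich in Ttr (adjusted p = 0.116). Nes and Pax6, named for their role and outside the rule for named genes, gave -0.09 ± 0.06 and 0.06 ± 0.07 and were not called. The mean level of this list lay at 8.39 to 8.60 on cortical and at 8.62 to 8.80 on hippocampal arrays. Its part in the Gfap and Slc1a3 differences was not tested.

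Genes of other cell types were counted as well. Between the tissues, 11.75% of all genes were called higher and 14.24% lower by their brightest probe set. All 13 neuronal genes had differences below 0 (median -0.11) and 4 were called lower, led by Tubb3 (-0.45 ± 0.05, adjusted p = 1.65e-05) and Camk2a (-0.80 ± 0.09, adjusted p = 2.03e-05), and the mean level of the list was 11.82 to 11.96 in cortex and 11.66 to 11.75 in hippocampus. Of 13 genes of endothelium and pericytes, 4 were called lower, Esam, Flt1, Cdh5 and Abcb1a (median -0.18), with list means of 7.73 to 8.08 and 7.57 to 7.94. Without the arrays rich in Ttr 3 of them were called, with the choroid covariate 1, and Abcb1a in 5 of 12 fits that left out 1 array. Of 11 microglial genes, 1 was called lower, Aif1 (-0.27 ± 0.08, adjusted p = 0.0346), in 4 of 12 fits that left out 1 array and not without the arrays rich in Ttr (adjusted p = 0.128). Of 6 genes of oligodendrocyte precursors 2 were called higher, Pdgfra and Tmem100, and neither without those arrays (adjusted p = 0.0676 for Pdgfra and 0.121 for Tmem100). All 9 genes of ependyma, the ciliated lining of the ventricles whose cells also make Aqp4, S100b and Gfap, were called higher (median 0.57), with list means of 5.90 to 6.59 in cortex and 6.43 to 7.18 in hippocampus, and Mia, named after its values were seen, in only 2 of 12 fits that left out 1 array. With the choroid covariate, 4 of the 9 were called.

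All 10 choroid plexus genes had differences above 0 (median 1.30) and 2 were called higher, Kl and Calml4. As before, 11.75% of all genes were called higher and 14.24% lower. Kl was called in 9 of 12 fits that left out 1 array and Calml4 in 4, and without the arrays rich in Ttr 6 of the 10 genes were called. Of 10 genes of the leptomeninges and fibroblasts, whose cells also make Gja1, Dcn (2.34 ± 0.10, adjusted p = 7.74e-09) and Lum (0.93 ± 0.15, adjusted p = 0.000534) were higher and Igfbp6 was lower (-1.47 ± 0.11, adjusted p = 1.36e-06). The mean of that list ranged from 7.47 to 8.99 on the 3 APPsα-DM hippocampus arrays and from 7.47 to 7.90 in the other groups. The part of these cells in the marker differences was not tested. With the choroid plexus signal as a covariate, the differences were 1.31 for Gfap 1, 0.62 for Aqp4 2 and -0.43 for Aldh1l1 1. S100b 2 was no longer called with it (-0.15, adjusted p = 0.177). Across the genotypes, limma called 0 genes of any of these lists in cortex, in hippocampus or in the difference of the tissue effects. In hippocampus, APPsα-DM minus APLP2-KO lay above 0 for 12 of 13 genes of endothelium and pericytes (median 0.19), for 9 of 9 ependymal genes (0.39), for 10 of 10 choroid plexus genes (1.13) and for 12 of 13 pan-reactive genes (0.11), where 54.2% of all genes lay above 0. At an unadjusted p under 0.05 limma found 7, 3, 0 and 0 of these, against 4.11% of all probe sets. It found 0 of the 10 markers by their brightest probe set. Other lists leaned the other way in hippocampus. There 10 of 11 oligodendrocyte genes (median -0.03), 5 of 6 genes of oligodendrocyte precursors (-0.03) and 8 of the 10 markers (-0.04) lay below 0.

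**Figure D5:**
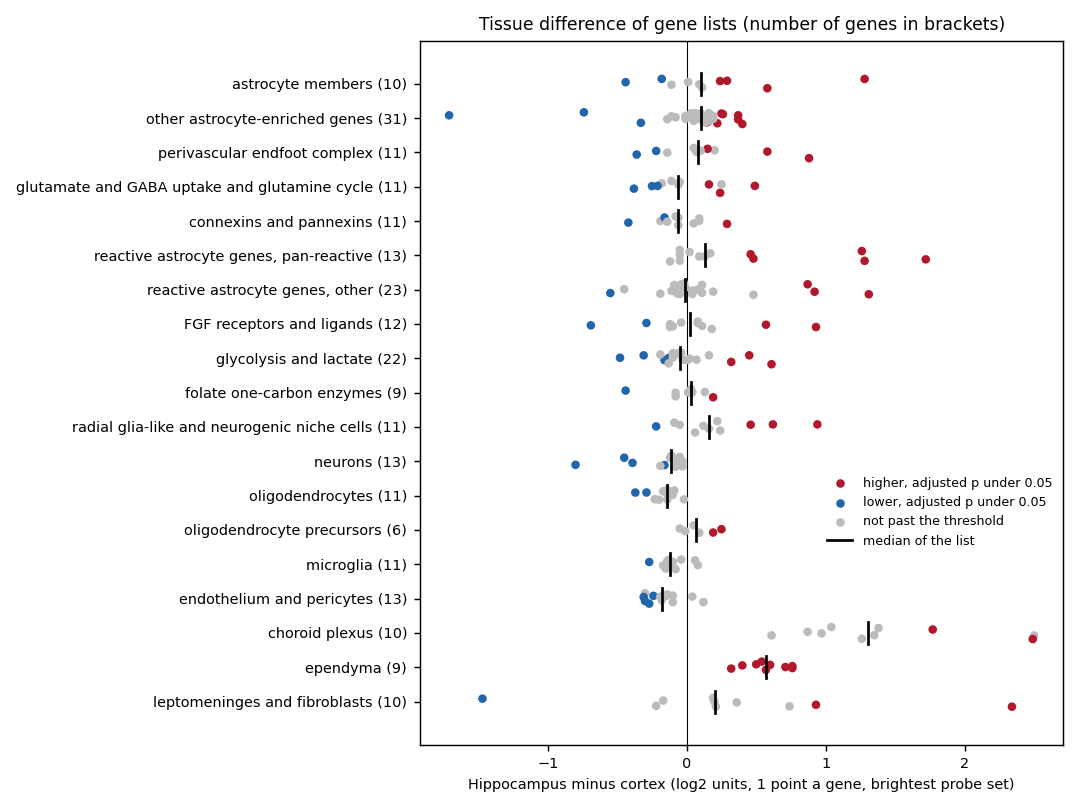
Hippocampus minus cortex, averaged over both genotypes, for the genes of each list (x axis, log2 units; points, the brightest probe set of a gene; colours, calls at an adjusted p under 0.05; black lines, list medians). The 10 astrocyte markers lie on both sides of 0, the 13 neuronal and 11 oligodendrocyte genes all lie below 0, and the 10 choroid plexus and 9 ependymal genes all lie above 0.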

How the data were processed

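RNA of 12 mouse brain samples was measured on 1 array each. Per the submitters' processing notes, the authors used RMA and the affy package (versions not given in the sources used here). The deposited values are log2 signals per probe set, background-corrected, quantile-normalised and summarised over probes as RMA does. Joint normalisation of the 12 arrays is not stated. Of 45101 probe sets, 64 controls were left out, with no filter on dim signals. Symbols came from the platform annotation, updated through the GRCm38.p6 RefSeq table.

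In R 4.3.3, limma 3.58.1 (lmFit, eBayes) fitted the 4 group means over 12 arrays (8 residual and 4.25 prior degrees of freedom). Every adjusted p is limma's, two-sided, Benjamini-Hochberg, over 45037 probe sets with the following exceptions. The adjustment ran over 21755 probe sets where only those of a mean of at least 6 were fitted. It ran over 18193 genes where the probe sets of a gene were averaged. The mean genotype effect was fitted on averages of same-numbered cortex and hippocampus arrays, 3 against 3, since these may come from 1 mouse. The shared number affects its spread and not its value. Lists took the brightest probe set of a gene. Precision is limited by the number of arrays, and the median SE over the 32 probe sets was 0.095 within a tissue and 0.067 for the tissue difference over both genotypes. The script was tested on simulated data.

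The 10 genes and all lists were chosen with earlier results of these data known. All member probe sets are named, and of each list up to 4 called genes with the smallest p, apart from genes declared where they stand. Alternatives left out each array or the 2 cortical arrays rich in Ttr, and changed the arrays fitted, variance model, dim filter, scaling, centring, block, choroid covariate and summary of probe sets. Replicate numbers are shared by the groups, and the labels do not say that a number marks a mouse. Deviations of same-numbered cortex and hippocampus arrays correlated at 0.11 to 0.16 in APLP2-KO and at 0.02 to 0.08 in APPsα-DM, and those of same-numbered genotypes at -0.25 to 0.21, so no block on the number was used otherwise.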

Additional observations from a re-analysis of the deposited data

How the results depend on the processing

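No called difference of the 10 astrocyte markers reversed its direction under any alternative run. Of the counts of called marker probe sets, 4 moved by more than 1.5 times, all in the tissue comparison within APPsα-DM: 11 probe sets became 7 without the 2 cortical arrays rich in Ttr, and 6 to 12 with single arrays left out. Leaving out single arrays gave 12 to 16 in APLP2-KO and 18 to 21 over both genotypes. With the replicate block, the counts were 16 in APLP2-KO, 11 in APPsα-DM, 20 over both genotypes and 0 in every genotype comparison. The block turned some calls within a genotype: in APLP2-KO, Gja1 2 (adjusted p = 0.00146) and Gja1 6 (0.0389) gained a call and Slc1a3 5 (0.0548) lost it, and in APPsα-DM, Gja1 2 (0.00808) gained one and Slc1a3 6 (0.0689) lost it. It changed no other call of a marker. Averaging a gene's probe sets, the 6 genes that passed by their brightest probe set also passed between the tissues: Gfap (1.45), Aqp4 (0.64), Gja1 (0.36), Slc1a3 (0.22), S100b (-0.24) and Aldh1l1 (-0.28). Of 4349 single probe set values under alternatives, 85 lost a call and 39 gained one, and 148 changed sign, 0 of them called with all arrays. With 3 arrays per group, 1 array can decide the sign of an uncalled genotype difference (Slc1a2 5 in hippocampus, -0.40, and 0.06 without APPsα-DM replicate 2), and signals near the dim end limit Aldh1l1 2, Slc1a2 1, Slc1a3 3 and 4, and Gja1 6.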
